A study of Mus musculus with 4 samples.

Results

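Meis1, Meis2, Meis3, Pbx2, Pbx3, Pknox1 and Pknox2 are homeobox genes, and they were examined here for binding of the transcription factor Isl1 in the embryonic genital tubercle, from which the penis or the clitoris develops. The 7 genes were taken as a named set out of 21887 protein-coding genes of the mouse. They are not the whole family, and Pbx4, for one, is given with other homeobox genes below. An Isl1 peak was counted for a gene when its midpoint lay inside the gene or within 500 kb of either end. The data were ChIP-seq peak lists (chromatin immunoprecipitation followed by sequencing, which maps where a protein sits on DNA) from wild-type mouse tissue (strain CD1, genital tubercle, E14.5), made with a rabbit monoclonal antibody against ISL1. There were 2 ChIP samples, called replicates 1 and 2, each with its own peak list of 8860 and 10162 peaks. The series also holds 2 input DNA samples from the same kind of tissue, which were not analysed here. The labels do not say whether the replicates came from separate litters or pools of embryos, and whole tubercles were used, so a peak cannot be placed in a cell type. All positions are in mm10, and gene positions are from RefSeq (assembly GRCm38.p6).

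Meis, Pbx and Pknox proteins belong to the TALE class of homeodomain proteins, whose homeodomain carries an extended loop. Meis and Pknox (also called Prep) proteins bind Pbx proteins, hold them in the nucleus and together with them join Hox proteins on DNA, which sharpens the choice of sites by Hox factors. In limb buds, another kind of outgrowth, Meis1 and Meis2 mark the proximal part and respond to retinoic acid. Isl1 is a LIM-homeodomain factor, so the question here was where a homeodomain factor of the tubercle lies around genes of another homeodomain class. No group of samples without Isl1 was compared, so all values below describe binding in wild-type tissue and give no test between conditions.

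Together, 41 peaks of replicate 1 and 48 of replicate 2 lay in or within 500 kb of the 7 genes. Peaks of both replicates that overlapped by at least 1 bp were joined and counted as a shared region, and 35 of the 6834 shared regions were near these genes (Poisson 95% interval 24.4 to 48.7, counting error only). They were spread unevenly. Meis1 had 13 regions and Meis2 had 7, which together made 57.1% of the 35. Pbx3 had 5, Pbx2 and Pknox1 had 4 each, and Meis3 and Pknox2 had 1 each. The order by number was thus Meis1, Meis2, Pbx3, then Pbx2 and Pknox1, then Meis3 and Pknox2. Of these neighbours, Meis2, Pbx3, Pbx2 and Pknox1 cannot be ranked with any firmness. The Poisson interval of Meis2 alone ran from 2.81 to 14.4, and replicate 2 alone placed Pbx3 (12 peaks) above Meis2 (10 peaks). The first place of Meis1 is not firm by counting error either, since its interval of 6.92 to 22.2 overlapped that of Meis2. In replicate 2 alone Meis1 led Pbx3 by only 13 peaks to 12.

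All 7 genes had at least 1 shared region in or within 500 kb, which says little, because 78.0% of all protein-coding genes did. Pbx4, a Pbx gene outside the set of 7, had none. The median was 4 regions over the 7 genes and 2 over all protein-coding genes. A stricter count assigns each region to the gene it lies in, or otherwise to the nearest protein-coding gene within 100 kb. By that rule 5 of the 7 genes (Meis1, Meis2, Pbx3, Pknox1 and Pknox2) had a region, against 14.1% of all protein-coding genes. A shared region lay inside Meis1, Meis2 and Pknox2, so in 3 of the 7, against 8.32% of all protein-coding genes. The 7 genes are mostly long, from 5.14 kb for Pbx2 to 256 kb for Pknox2 against a median of 17.2 kb over all protein-coding genes. The part of length in these counts was not tested.

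**Figure D1:**
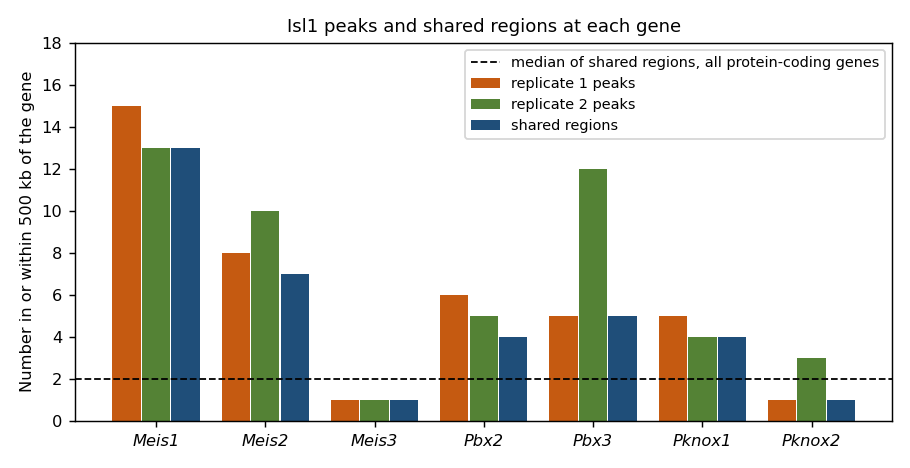
Numbers of Isl1 peaks in replicate 1 and replicate 2 and of shared regions (y axis) in or within 500 kb of each of the 7 genes (x axis), with the median of shared regions over all protein-coding genes as a dashed line. Meis1 stands highest with 13 shared regions, and at Pbx3 replicate 2 has 12 peaks against 5 in replicate 1.

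Meis1 is the member with the most Isl1 regions, and a shared region lies at its start site. The sequence before that start, and the same stretch of 2 relatives, are shown because they are the places where binding at a promoter can be compared within the family. RefSeq promoter windows of 300 bases (250 before and 50 after a gene's start) were matched for 4 of the 7 genes: Meis1, Meis2, Meis3 and Pbx2. Each line gives the 250 bases before the start, read 5′ to 3′ on the strand of the gene, from GRCm38.p6. In Meis1 (minus strand, chr11:19018970-19019219) capitals mark the 120 bases that lay under the peaks of both replicates. In Meis2 (minus strand, chr2:116064620-116064869), where neither replicate had a peak, capitals mark TAAT read on the opposite strand. In Pbx2 (plus strand, chr17:34592009-34592258) capitals mark the 15 bases under a peak of replicate 1 alone.
Meis1: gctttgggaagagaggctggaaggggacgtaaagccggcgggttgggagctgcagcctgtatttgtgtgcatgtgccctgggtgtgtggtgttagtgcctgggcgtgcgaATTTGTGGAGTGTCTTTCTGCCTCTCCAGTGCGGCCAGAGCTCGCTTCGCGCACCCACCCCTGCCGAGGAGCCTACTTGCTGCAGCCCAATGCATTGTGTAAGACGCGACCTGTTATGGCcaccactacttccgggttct
Meis2: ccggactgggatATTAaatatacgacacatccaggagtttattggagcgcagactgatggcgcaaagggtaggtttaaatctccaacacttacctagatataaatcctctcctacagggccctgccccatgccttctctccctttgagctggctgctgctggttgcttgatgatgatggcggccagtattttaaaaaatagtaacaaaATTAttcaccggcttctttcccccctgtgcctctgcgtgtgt
Pbx2: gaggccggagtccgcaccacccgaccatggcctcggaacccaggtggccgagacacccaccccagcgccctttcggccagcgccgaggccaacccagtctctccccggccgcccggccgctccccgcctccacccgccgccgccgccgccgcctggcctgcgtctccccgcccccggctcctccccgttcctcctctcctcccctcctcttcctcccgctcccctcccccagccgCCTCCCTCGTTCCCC

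Of the 4 windows, the one of Meis1 was overlapped by a shared region, against 4.29% of the 17492 protein-coding genes with a window. The replicate 1 peak ran from 160 to 21 bp before the Meis1 start site (chr11:19018990-19019129, score 263). The replicate 2 peak ran from 140 to 8 bp before it (chr11:19018977-19019109, score 152). Both peaks thus lay wholly before the start, with their centres 90.5 and 74.0 bp away. The RefSeq gene extends 682 bp beyond this start site, so the same bases lie inside the gene as annotated, and other starts of Meis1 were not examined. The score is a whole number that the authors gave each peak, from 20 up to 1637 in replicate 1 and 1638 in replicate 2, and it is used here only to describe, rank and filter peaks.

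A set of 5 short motifs was searched on both strands of the windows: CTAATG and TAAT (letters bound by LIM homeodomains; the first holds the second), TGACAG (Meis and Pknox), TGATTTA (Pbx with posterior Hox) and TGATTGA (Pbx with Meis or Pknox). None of the motifs occurred in the Meis1, Meis3 or Pbx2 window. The Meis2 window held TAAT at 238 and at 42 bases before the start and none of the others. For comparison, TAAT was in 51.8% of the 21263 windows of protein-coding genes and in 45.0% of the 817 windows that a shared region overlapped. TGACAG was in 18.7% of all windows and 12.0% of those with a region, CTAATG in 6.44% and 4.41%, TGATTTA in 2.61% and 1.10%, and TGATTGA in 2.54% and 2.45%. The Meis1 stretch is therefore a place where both replicates had a peak and where these letters were not present in the window, which says nothing about how the factor was held there. The 250 bases had a GC content of 59.6% in Meis1, 47.6% in Meis2, 63.6% in Meis3 and 77.6% in Pbx2, against a median of 55.6% over all windows.

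Around Meis1, which encodes a Pbx partner of limb and blood development, Isl1 regions lay on both sides of the gene (chr11:18880428-19019651). A second region of like strength stood 822 bp beyond the gene's 5′ end (chr11:19020390-19020553, scores 201 and 229 in replicates 1 and 2), separated from the start-site region by 1260 bp. Their lower scores, 201 for this region and 152 at the start site, were the highest and the third highest of the 13, the lower score being the smaller of the scores in the replicates. A cluster of 3 regions followed beyond the 3′ end, at 34.7 kb (scores 60 and 137), 38.0 kb (121 and 99) and 38.9 kb (73 and 75). Replicate 1 had a further peak beside them that replicate 2 lacked (score 87, 39.1 kb from the gene). No shared region lay in the 173130 bp between the cluster and the start-site region, which takes in nearly the whole transcribed part of Meis1.

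The other 8 Meis1 regions were distal. On the 3′ side they stood at 129 kb (scores 103 and 66), 165 kb (119 and 122), 189 kb (69 and 51), 429 kb (197 and 333) and 442 kb (102 and 100). On the 5′ side they stood at 326 kb (61 and 33), 331 kb (58 and 157) and 405 kb (128 and 199). The strongest of the distal ones was that at 429 kb (chr11:18450996-18451669), a wide region of 674 bp, whose lower score of 197 was reached by 20.3% of all shared regions. The regions at 326 and 331 kb fell in the pseudogene Gm12026 and that at 129 kb in the long non-coding RNA gene Gm31674, and the other 5 distal ones in no annotated gene.

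Meis1 was the nearest protein-coding gene of all 13 regions, because it stands alone: Etaa1 lies 927 kb away on one side and Spred2 905 kb on the other. The stretch from Etaa1 to Spred2 (1.97 Mb) held 20 shared regions, or 10.1 per Mb, against 2.54 per Mb from the first to the last protein-coding gene of every chromosome. Counted per gene, 13 regions or more were found at 0.731% of protein-coding genes, and the density of 11.4 per Mb in the Meis1 window was reached by 0.722%. At 1 bp of overlap, 14 of 15 replicate 1 peaks were shared (93.3%, Wilson 95% interval 70.2 to 98.8%), against 78.5% of that whole list, which lies inside the interval. In replicate 2, 13 of 13 peaks were shared, against 68.3% of that whole list. With 50% reciprocal overlap Meis1 had 9 regions, a number reached by 2.39% of genes, and 4 of the 5 regions near the 7 genes that lacked such overlap were at Meis1. In replicate 2 alone its 13 peaks were reached by 2.42% of genes. With peaks at or above the median score of their list alone, Meis1 had 7 regions, a number reached by 2.26% of genes.

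**Figure D2:**
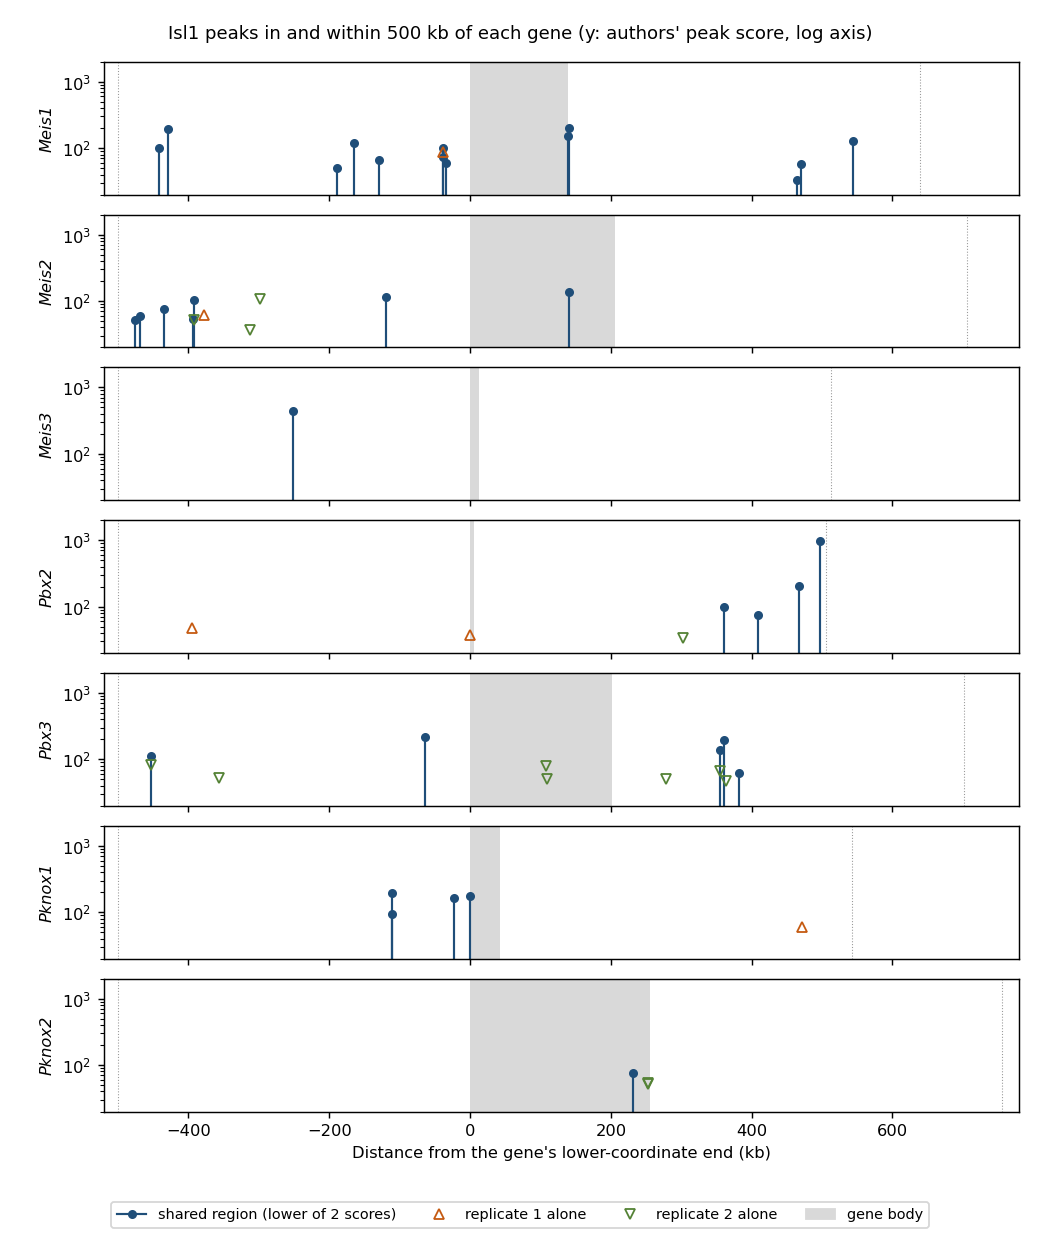
Isl1 peaks around each gene (1 row per gene), by distance from the gene's lower-coordinate end in kb (x axis) and by the authors' peak score on a log axis (y axis). Filled points with stems are shared regions at the lower of their 2 scores, open triangles are peaks of 1 replicate alone, grey bands are gene bodies and dotted lines mark 500 kb from each gene end. Meis1 has regions on both sides, Meis2 on one side and inside, and the shared regions of Pbx2 start 355 kb away.

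Meis2, the closest relative of Meis1 and likewise a Pbx partner, had 7 shared regions, and they were one-sided. The gene (chr2:115861264-116067537) held 1 of them, 66.0 kb from its 5′ end (chr2:116001413-116001602, scores 138 and 174), the highest lower score of the 7. The other 6 lay beyond the 3′ end. At 119 kb a region fell inside the neighbouring gene BC052040 (scores 113 and 166). The remaining 5 lay past that neighbour, between 393 and 476 kb from Meis2, with lower scores from 51 to 102. A pair of them, at chr2:115467821-115468175 and chr2:115468196-115468617, was only 20 bp apart.

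On the 5′ side of Meis2 neither replicate had a peak in the 0.811 Mb up to the next gene, Tmco5, and the nearest shared region on that side was 1696 kb away. A site under the authors' threshold would not be listed, so this stretch is not shown to be free of Isl1. BC052040, not Meis2, was the nearest gene of 6 of the 7 regions, so the binding on the 3′ side cannot be tied to Meis2 by position. Replicate 2 alone had 3 more peaks here (scores 51, 37 and 109) and replicate 1 alone had 1 (score 61). The largest disagreement in score near the 7 genes was also here: the region at 469 kb scored 60 in replicate 1 and 293 in replicate 2, a ratio of 4.88. Both Meis1 and Meis2 thus had distal regions, but the start-site peaks were seen at Meis1 and not at Meis2. The RefSeq gene of Meis2 also extends beyond the start site used, and other starts of Meis2 were not examined. Inside the gene, neither list had a peak closer to the 5′ end than the shared region at 66.0 kb. With peaks at or above the median score of their list, Meis2 had 3 regions. Its 7 regions were a number reached by 8.33% of protein-coding genes, and these 3 by 23.4%.

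Meis3, the third Meis gene (chr7:16174012-16186510), had 1 shared region (78.0% of genes had as many or more, as for Pknox2), 252 kb away and stronger than any at Meis1 or Meis2 (chr7:15922320-15922673, scores 735 and 437). It lay 120 bp from Selenow, a selenoprotein gene, whose promoter window it overlapped, and Selenow was its nearest gene. The window of Meis3 held 24 other protein-coding genes. Neither list placed a peak closer to Meis3, so these data gave no Isl1 site that position would tie to it.

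Pbx3, a Pbx gene (chr2:34171457-34372045), had 5 shared regions (a number reached by 19.4% of genes) and none inside. The closest, 64.3 kb from its lower-coordinate end, was also the strongest by the lower score (chr2:34106986-34107297, scores 220 and 243), lay in the long non-coding RNA gene C230014O12Rik and had Pbx3 as its nearest protein-coding gene. Another 3 stood inside the neighbour Mapkap1, a subunit gene of a TOR kinase complex, at 155 kb (scores 138 and 166), 160 kb (193 and 548) and 181 kb (62 and 100) from Pbx3. The last was 454 kb away near Mvb12b (113 and 184).

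The replicates differed most in number at Pbx3. Replicate 1 had 5 peaks and all were shared, whereas replicate 2 had 12, of which 5 were shared (41.7%, Wilson 95% interval 19.3 to 68.0%, against 68.3% of all replicate 2 peaks). The 7 peaks of replicate 2 alone had scores from 48 to 83, under the median of 96 in that list. A pair of them lay inside Pbx3, 108 and 109 kb from its lower-coordinate end, with scores of 81 and 51. By replicate 2 alone Pbx3 would thus count as holding Isl1 peaks, and by replicate 1 or by shared regions it would not.

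Pbx2, the other Pbx gene here (chr17:34592259-34597400), is short and sits among 59 other protein-coding genes within its window. Its 4 shared regions (a number reached by 29.0% of genes, here and at Pknox1) were all on the higher-coordinate side and far from it, at 355 kb (scores 99 and 131), 404 kb (76 and 127), 462 kb (405 and 206) and 492 kb (1080 and 956). Their nearest genes were Hspa1b, a heat shock gene, Vars, Ddah2 and Abhd16a. The last region, inside Abhd16a (chr17:35089236-35089697), was the strongest within 500 kb of any of the 7 genes, with a lower score reached by 0.498% of all shared regions, but it lies near the edge of the window and other genes lie between. At Pbx2 itself replicate 1 had a weak peak from 15 bp before to 111 bp after the start site (chr17:34592244-34592370, score 37), and replicate 2 had none there. Another 2 peaks of single replicates lay 394 kb (replicate 1, score 47) and 297 kb (replicate 2, score 34) away. Replicate 1 alone would therefore put the nearest site at the gene, whereas shared regions put it 355 kb away.

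Pknox1, a Pbx partner also known as Prep1 (chr17:31564722-31607693), had 4 shared regions, all on its lower-coordinate side. The closest was 427 bp outside that end of the gene (chr17:31564159-31564433, scores 196 and 176). The next stood 23.3 kb away between Pknox1 and Ndufv3 (162 and 223), and Ndufv3 was nearer to it. A further pair, 378 bp apart at 111 and 112 kb, lay inside the phosphodiesterase gene Pde9a (196 and 253, and 96 and 94). Scores of the replicates were within a factor of 1.38 at all 4, and a peak of replicate 1 alone lay 429 kb away on the other side (score 61). Pknox1 was the only member besides Meis1 with a shared region within 1 kb of its own gene end.

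Pknox2, the relative of Pknox1 known as Prep2 (chr9:36890979-37147342), is the longest of the 7 genes and had 1 shared region, inside it and 25.0 kb from its higher-coordinate end (chr9:37121988-37122382, scores 102 and 75). Replicate 2 had 2 more peaks inside the gene, 3.99 and 3.13 kb from that end (scores 53 and 51), which replicate 1 lacked. On either side the nearest shared region was more than a megabase away, 1470 kb below and 1436 kb above. When the peaks of the replicates had to overlap by 50% of each, the region was no longer shared and Pknox2 had none.

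**Figure D3:**
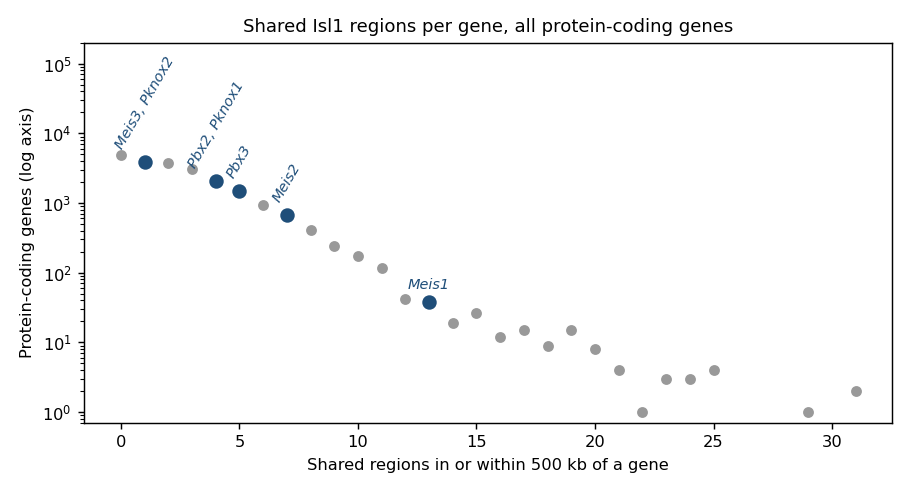
Number of protein-coding genes (y axis, log) by their number of shared Isl1 regions in or within 500 kb (x axis), with the counts that hold the 7 genes in dark blue. Meis3 and Pknox2 sit at 1 region, Pbx2 and Pknox1 at 4, Pbx3 at 5, Meis2 at 7 and Meis1 at 13. The highest count of any protein-coding gene was 31.

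As a set, the 35 regions were of ordinary strength. Their lower scores ran from 33 to 956 with a median of 102, against 91 over all shared regions, and 22 of the 35 lay above that general median. Of the 35, 2 exceeded 300, those at Selenow and Abhd16a, and neither of these had a member as its nearest gene. The lower score of 437 at Selenow was reached by 6.09% of all shared regions, and that of 956 at Abhd16a by 0.498%. The share of all shared regions above 300 was not counted, so these 2 of the 35 cannot be set against it. The replicates' scores had a Spearman correlation of 0.672 over the 35 regions and 0.717 over all 6834 (regions share their libraries, so these are descriptions). The score was higher in replicate 2 at 22 of the 35, a share that was not counted over all 6834. Over all shared regions the median score was also higher in replicate 2, at 127 against 107 in replicate 1. Of the replicate 1 peaks near the 7 genes, 36 of 41 were shared (87.8%, Wilson 95% interval 74.5 to 94.7%), against 78.5% of that whole list. In replicate 2, 35 of 48 were shared (72.9%, 59.0 to 83.4%), against 68.3% of that whole list. Both whole-list shares lay inside these intervals. The median width was 286 bp against 251 bp over all shared regions.

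**Figure D4:**
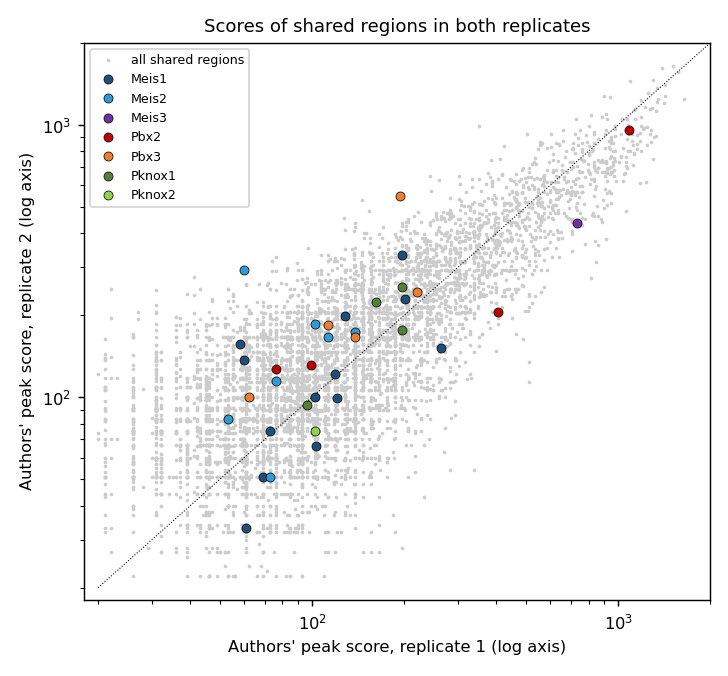
Authors' peak score of each shared region in replicate 1 (x axis, log) and replicate 2 (y axis, log), with all 6834 regions in grey and the 35 regions near the 7 genes coloured by gene. The dotted line marks equal scores. The regions of Pbx2 and Meis3 at upper right are those at Abhd16a and Selenow, and the Meis2 region scoring 60 and 293 lies farthest above the line.

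By location, 13 of the 35 regions (37.1%, Wilson 95% interval 23.2 to 53.7%) lay over 100 kb from any protein-coding gene, against 25.8% of all shared regions, and these were 8 of the Meis1 and 5 of the Meis2 regions. Inside protein-coding genes lay 12 (34.3%, 20.8 to 50.8%), against 42.8% of all shared regions. Within 1 kb of a gene end lay 7 (20.0%, 10 to 35.9%), against 13.6%. A member was the nearest protein-coding gene for 17 of the 35, and 13 of those 17 were at Meis1.

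Other TALE homeobox genes gave a mixed picture. Of 10 such genes (Pbx4, Tgif1, Tgif2, Mkx and the Irx genes 1 to 6), 7 had a shared region within 500 kb, against the 78.0% of all genes, 1 had one inside (8.32% of all genes) and 3 had one assigned (14.1% of all genes). The median was 2.50 regions, against 2 over all genes. Irx3 had 12, Irx5 had 6, and Irx6 and Mkx had 5 each, of which 1 lay inside Mkx. The 3 Iroquois genes form a cluster on chromosome 8, and their windows share regions. Irx2, Irx4 and Pbx4 had none. By count Irx3 thus came closest to the 13 of Meis1, and by density it stood above, at 12.0 regions per Mb against 11.4. In replicate 2 alone Irx3 had 17 peaks against 13 at Meis1, whereas in replicate 1 alone Irx3 had 13 against 15 at Meis1.

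Partners and regulators of Meis and Pbx genes were also examined. All 9 posterior Hox genes of the Hoxa and Hoxd clusters had regions within 500 kb (78.0% of all genes), with 16 each at Hoxd10, Hoxd11, Hoxd12 and Hoxd13 and 7 each at the Hoxa genes. Within each cluster the windows overlap almost wholly, so they show the same regions again. A region lay inside 2 of the 9 genes (Hoxa10 and Hoxa11), against 8.32% of all genes. Of 6 retinoic acid genes, all had regions within 500 kb (78.0% of all genes), 4 had one inside and 5 had one assigned, against 8.32% and 14.1% of all genes. The most were at the receptor gene Rara (9), at Cyp26b1 (6), which encodes a degrading enzyme, and at Aldh1a2, Rarg and Rdh10 (5 each), which encode a synthetic enzyme, a receptor and another synthetic enzyme. The closest at Aldh1a2, inside the gene, scored 359 and 429.

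To see which genes carried a pattern most like that of the leading members, peaks of both replicates were counted in 5 distance bins (inside, and 0 to 50, 50 to 100, 100 to 250 and 250 to 500 kb away) and compared by Euclidean distance over the resulting counts. The nearest to Meis1 were Cxcr5 (distance 2), its neighbour Upk2 (2.83) and Gfm1 (distance 3). Cxcr5 had 5 and 4 peaks within 50 kb in replicates 1 and 2, as Meis1 did, but no peak inside. Among the nearest to Meis2 were Bsnd and Rabac1 (1.41 each), which likewise lacked the peak inside the gene.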

How the data were processed

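Per the labels' protocols, tubercles were cross-linked for 20 minutes with 1% formaldehyde, chromatin fragments measured 150 to 400 bp, 500 µg of chromatin met 5 µg of antibody, and single-end reads of 75 bp were taken. The submitters' processing notes name Trimmomatic 0.35, Bowtie2 2.2.6, MACS2 2.1.0.20150731, bedtools and build mm10. The sources used here give neither their settings nor how the input was used. Each peak carries a whole-number score deposited by the authors, of unstated formula. The lists hold no read counts, so depth is unknown, and it could change how many weak peaks a list holds.

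Overlapping peaks were joined with Python 3.11.15, numpy 2.4.6 and scipy 1.17.1. A region sits at the midpoint of its longest overlap and takes the highest score of each replicate. The code was tested on artificial peak lists with known answers. Intervals cover counting error only. No test was run, since 2 samples of 1 group allow none. The 7 genes, the gene lists and the rules were chosen with earlier results of these data known. Named genes were the 7 genes, the nearest genes of their regions, the 3 genes with most regions per list (with ties and genes at 0) and the 3 most like Meis1 and Meis2, with some items not reported here. Alternatives were 50% reciprocal overlap, a score limit, single replicates, windows of 100 kb, 250 kb and 1 Mb, the midpoint of the joined span and assignment by nearest gene end. Motifs were searched in promoter windows only.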

Additional observations from a re-analysis of the deposited data

How the results depend on the processing

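Of 119 values under alternatives, 88 stayed within the limits set for them (a factor of 1.5 for counts) and 31 moved, 19 of them by a change of window. The 35 regions near the 7 genes became 30 with 50% reciprocal overlap, 21 with peaks at or above the median score of their list, and 10, 19 and 62 with windows of 100 kb, 250 kb and 1 Mb. Leaving out 1 replicate gave 41 to 48 peaks. The share of replicate 1 peaks near the 7 genes that were shared fell to 73.2% with reciprocal overlap, a setting for which the whole-list share was not counted. The median lower score was 145 within 100 kb. Of the 7 genes, those with an assigned region numbered 4 to 6 over the alternatives. The same share over all protein-coding genes ran from 9.17% (score limit) to 17.6% (replicate 2 alone), and was not counted for the nearest gene end. Members with a region inside numbered 2 to 4, and that share over all genes was counted only for the main rule (8.32%). Meis1 had the most regions of the 7 under every alternative run, from 5 within 100 kb (reached by 1.43% of genes) to 20 within 1 Mb (0.982%), and its counts were reached by at most 2.42% of genes (replicate 2 alone). Wider windows take in more sites by construction. Likewise by construction, a stricter overlap or a score limit drops pairs of peaks, and a single list also counts peaks that were not shared. The cause of any further shift was not tested. No paired analysis was possible because replicate numbers are shared only with the input libraries, for which no peaks were used here.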
